A study of Mus musculus with 2 samples.

Results

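Bone morphogenetic protein (BMP) signalling and the Id genes were followed through the fetal mouse ovary by the levels of 10 genes: the ligands Bmp2 and Bmp4, the receptors Bmpr1a and Bmpr2, the signal transducer Smad5, the inhibitory Smads Smad6 and Smad7, and the targets Id1, Id2 and Id3. The members were taken by gene symbol from both count matrices, and all 10 were found among 27998 gene identifiers. The set was selected on measured values, the lower Id1 level in GR-deleted germ cells, so the germ cell contrast between genotypes is given here as a description of chosen genes.

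Ovaries were taken at E15.5 from embryos with a constitutive deletion of the glucocorticoid receptor (GR, gene Nr3c1), made by recombining a floxed exon 3 with a β-actin cre (KO, 2 embryos pooled), and from embryos with intact GR (WT, 4 embryos pooled). Both groups carried the Pou5f1-GFP transgene, by which germ cells were sorted and then recombined with ovarian somatic cells at 60 to 40 before droplet capture. GR was absent from every cell of the KO embryo, so an effect within the germ cells and one that reaches them from the soma cannot be told apart. Each genotype gave 1 library and there is no replicate. No test between genotypes was possible, and every interval below covers counting error only, not the variation between ovaries.

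BMP ligands bind complexes of type I receptors such as BMPR1A and type II receptors such as BMPR2, which phosphorylate SMAD1, SMAD5 and SMAD9. These join SMAD4 in the nucleus and switch on the Id genes and also Smad6 and Smad7, whose products dampen the pathway. ID proteins bind E proteins such as TCF3, TCF4 and TCF12 and hold them off DNA, and in the fetal ovary BMP signals from the soma act with retinoic acid as germ cells enter meiosis.

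After filtering, 15502 KO and 9045 WT cells were kept, with a median of 10194.5 and 15685 unique molecular identifiers (UMIs, each a captured transcript) per cell. The KO cells were therefore shallower, and 27 barcodes were shared by the kept cells of both libraries. Germ-like cells numbered 10087 in KO and 6724 in WT, and somatic-like cells 4612 and 2067. Levels are UMIs per 1000000 UMIs of a class (CPM). Nr3c1 stood at 11.6 CPM in KO and 72.2 CPM in WT germ-like cells, in the direction of the labels. Reads of this chemistry come from the end of the transcript, outside the deleted exon, so the Nr3c1 level reports RNA abundance and not the deletion. The summed granulosa markers in germ-like cells reached 0.891% of their level in Lgr5+ granulosa-like cells in KO and 0.829% in WT, the summed stroma markers reached 0.541% and 0.571% of their level in stroma-like cells, and the summed epithelia markers 0.733% and 0.591% of theirs. Germ markers in somatic-like cells reached 5.19% of their germ-like level in KO and 3.07% in WT.

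Germ-like cells were divided into 6 clusters, each called by the germ stage marker that led it, since none met the rule for a stage name. The members were left out of the clustering. Rec8, a meiotic cohesin, and Stra8, a gatekeeper of meiotic entry, led a cluster each. Prdm9, which marks recombination hotspots, and Meiob, a recombination factor, led another pair. Pou5f1, a pluripotency factor, and Sohlh1, an oocyte transcription factor, led the remaining clusters. These labels are not stages, and a marker could be higher elsewhere. Meiob had 318 CPM in KO and 333 in WT in the Prdm9 cluster, against 293 and 274 in the Meiob cluster. Stra8 was higher in the Rec8 cluster than in its own. Pou5f1 in KO had 56.4 CPM in the Sohlh1 and 54.7 in the Pou5f1 cluster. The germ marker Sycp1 was highest in the Pou5f1 cluster (4256 and 3822 CPM).

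The Id genes were highest in the Rec8 and Sohlh1 clusters and lower in the other clusters, which are listed in no time order. In WT, Id1 stood at 434 CPM in the Rec8 cluster, 95.6 in the Stra8 cluster, 46.7 in the Prdm9 cluster, 144 in the Meiob cluster, 253 in the Pou5f1 cluster and 833 in the Sohlh1 cluster. In KO the Rec8 and Sohlh1 clusters changed places at the top of the order, with levels of 489, 103, 66.1, 117, 185 and 409 CPM. The Sohlh1 cluster thus held 1.92-fold the Id1 level of the Rec8 cluster in WT, and 0.838-fold in KO.

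Id3 was highest in the Rec8 cluster in both libraries. Its WT levels were 674, 125, 22.4, 67.0, 102 and 364 CPM in the same cluster order, and its KO levels 738, 135, 33.9, 54.4, 67.4 and 167 CPM. Id2 ran at 89.6, 23.9, 12.1, 17.5, 31.9 and 71.7 CPM in WT and at 82.9, 18.2, 12, 14.1, 25.4 and 36.4 CPM in KO. All 3 genes were lowest in the Prdm9 cluster in both libraries, and the libraries lay furthest apart in the Sohlh1 cluster.

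**Figure D1:**
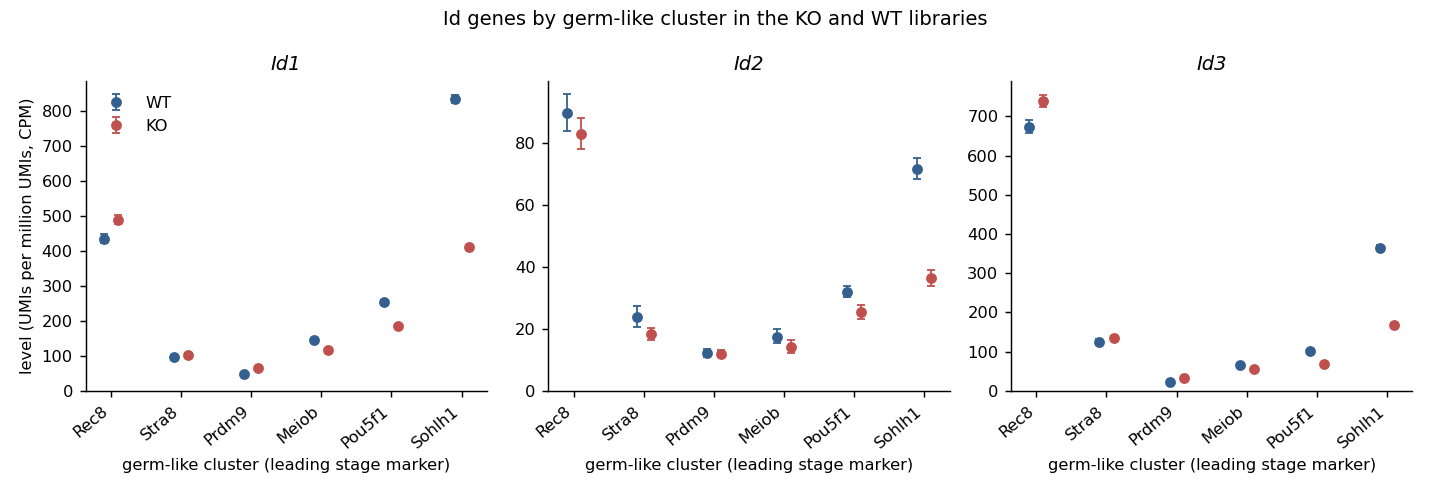
Level of Id1, Id2 and Id3 (CPM, y axis from 0) in the 6 germ-like clusters (x axis, by leading stage marker, in no time order) for the WT (blue) and KO (red) library; points are 1 summed level per library and bars are exact 95% Poisson intervals. The libraries lie close in the Rec8 and Stra8 clusters, and WT stands above KO in the Sohlh1 cluster, with Id1 at 833 against 409 CPM.

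Over all germ-like cells, Id1 stood at 205 CPM in KO (24569 UMIs) and 314 CPM in WT (37386 UMIs), a log2 ratio of KO over WT of -0.62 (exact 95% interval -0.64 to -0.59). After thinning each cell to 3000 UMIs, 31.0% of KO and 37.9% of WT germ-like cells held an Id1 UMI. Id2 stood at 27.3 and 38.1 CPM (log2 ratio -0.48, interval -0.55 to -0.42). Id3 stood at 156 and 181 CPM (-0.22, interval -0.24 to -0.19).

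A gene was called higher or lower when it had at least 100 UMIs over both libraries, an absolute log2 ratio of at least 0.5 and an interval without 0. Of 13701 genes with enough UMIs in germ-like cells, 7.8% were called, and 5.45% were called lower. Of the 10 members, all had enough UMIs and 4 were called lower: Id1, Bmp4, Smad6 and Smad7. The members' median log2 ratio was -0.39 beside -0.06 over all genes, a difference the choice of the genes helped to set.

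The inhibitory Smads were both called lower. Smad6 stood at 1.92 CPM in KO and 3.25 CPM in WT (log2 ratio -0.76, interval -0.998 to -0.52), and Smad7 at 4.41 and 6.25 CPM (-0.50, interval -0.67 to -0.34). The receptors moved less. Bmpr1a stood at 28.7 and 35.1 CPM (-0.29, interval -0.36 to -0.23), and Bmpr2 at 44.2 and 47.0 CPM (-0.09, interval -0.14 to -0.03). Smad5, which carries the signal from the receptors, stood at 34.0 and 37.1 CPM (-0.13, interval -0.19 to -0.07).

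The ligands were scarce in germ-like cells. Bmp2 stood at 5.57 CPM in KO and 6.62 CPM in WT (log2 ratio -0.25, interval -0.40 to -0.10), which is 6.40% and 6.33% of its level in Lgr5+ granulosa-like cells. Bmp4 rested on 118 KO and 193 WT UMIs, at 0.983 and 1.62 CPM (-0.72, interval -1.06 to -0.38), or 1.93% and 4.16% of its level in Lgr5- granulosa-like cells. Both ligands lay above the share of 0.829% to 0.891% at which the summed granulosa markers were found in germ-like cells. Single granulosa markers ranged from 0.361% to 3.94% in KO and from 0.332% to 14.9% in WT. These marker shares, like that of Bmp2, are relative to Lgr5+ granulosa-like cells, while that of Bmp4 is relative to Lgr5- cells. How much of either ligand came from free somatic RNA was not tested.

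The lower Id1 level in KO was carried mainly by the Sohlh1 cluster. There Id1 had a log2 ratio of -1.02 (interval -1.06 to -0.99), Id2 -0.98 (interval -1.10 to -0.86) and Id3 -1.12 (interval -1.18 to -1.07). With that cluster left out, an alternative chosen after seeing the data, the ratio over the remaining germ-like cells was -0.27 for Id1 and -0.25 for Id2, neither past the size limit, and Id3 turned to 0.16. Smad6 and Smad7 went to -0.47 and -0.30 in the same cells, so neither was called. Bmp4 had -0.63. The call of Id1 over all germ-like cells also ended, at -0.31, when cells with UMIs of at least 2 somatic markers were left out, which removed all but 3975 KO and 2454 WT cells.

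In the Sohlh1 cluster 6 of the members were lower together. Of 10594 genes with enough UMIs there, 8.51% were called lower, and of the 9 members with enough UMIs, 6 were: Id1, Id2, Id3, Smad6, Smad7 and Bmpr1a. Smad6 stood at 1.51 CPM in KO and 5.12 CPM in WT (log2 ratio -1.76, interval -2.36 to -1.20), from 34 and 118 UMIs. Smad7 stood at 3.33 and 8.34 CPM (-1.33, interval -1.73 to -0.93). Of the receptors, Bmpr1a had 28.4 and 40.7 CPM (-0.52, interval -0.66 to -0.37; between -0.51 and -0.32 under other settings, mostly short of the limit) and Bmpr2 28.3 and 36.6 CPM (-0.37, interval -0.52 to -0.22). Smad5, at 32.3 and 30.7 CPM (0.07, interval -0.08 to 0.22), did not go down with them. Bmp2 had 4.04 and 5.12 CPM (-0.34, interval -0.76 to 0.06), and Bmp4 fell under the UMI minimum with 28 and 56 UMIs.

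**Figure D2:**
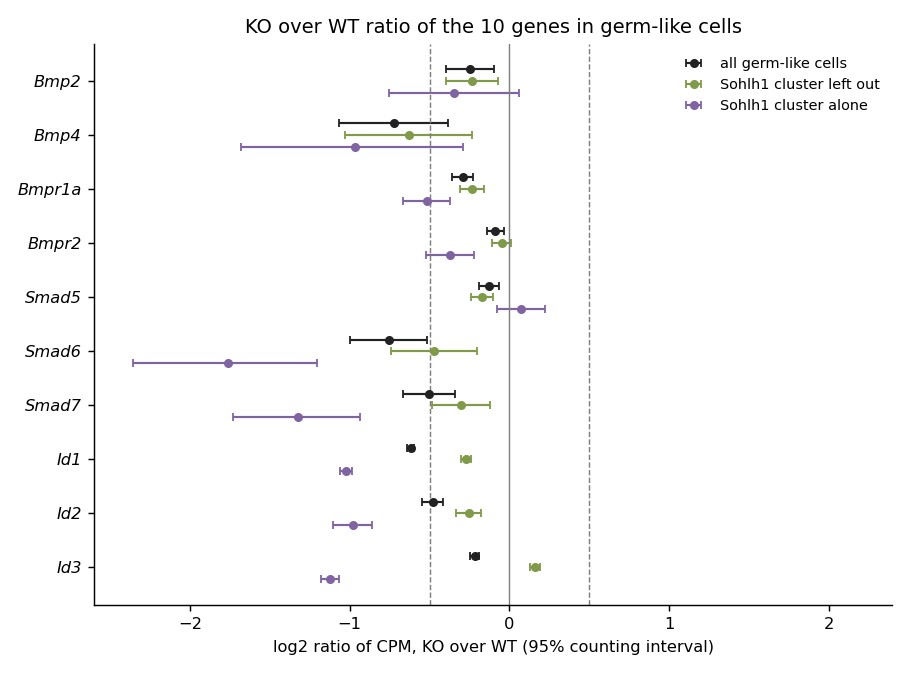
Log2 ratio of CPM, KO over WT (x axis), for the 10 genes (y axis) in all germ-like cells (black), without the Sohlh1 cluster (green) and in the Sohlh1 cluster alone (purple); bars are exact 95% intervals from counting error and dashed lines mark the size limit of 0.5. For the 3 Id genes and both inhibitory Smads the purple points lie furthest left, while Smad5 stays near 0 in all 3 sets of cells.

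Oocyte and meiotic genes also differed between the libraries within the Sohlh1 cluster. Sohlh1 itself stood at 9.18 CPM in KO and 59.4 CPM in WT, Figla, another oocyte transcription factor, at 163 and 223 CPM, and Stra8 at 33.2 and 66.2 CPM. A different mix of cells and a lower level in the same cells cannot be told apart here. The cluster was also split by whether a cell held a Sohlh1 UMI, a split chosen after seeing the data. Among cells with a Sohlh1 UMI (120 KO and 321 WT cells), Id1 stood at 885 CPM in KO and 1457 CPM in WT (log2 ratio -0.72, interval -0.81 to -0.63). Among cells without one (2206 and 1129 cells), it stood at 379 and 611 CPM (-0.69, interval -0.73 to -0.65). Both ratios were smaller in size than that of the whole cluster, and both remained past the size limit. The split used unthinned counts, and cells of this cluster had a median of 8764.5 UMIs in KO and 14923 in WT. A Sohlh1 UMI was therefore less likely to be seen in a KO cell with the same Sohlh1 level. The split thus did not hold the mix of cells fixed. Id2 had -0.63 in each set of cells, and Id3 -0.60 and -0.92.

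The Sohlh1 level still differed within the cells with a UMI, at 154 CPM in KO and 227 CPM in WT. A finer clustering (resolution 1.0) separated 17 KO and 80 WT cells with much Sohlh1, in which Id1 reached 2046 and 2463 CPM (log2 ratio -0.27, interval -0.42 to -0.12). In the larger Sohlh1 cluster of that clustering (1263 and 1311 cells), Id1 stood at 507 and 725 CPM (-0.52, interval -0.56 to -0.47). When the KO level was averaged over the finer clusters with the WT share of each, the ratio over germ-like cells was -0.31 for Id1, -0.28 for Id2 and -0.25 for Id3, while Smad6 and Smad7 stayed at -0.73 and -0.51. With the 6 coarser clusters the same average gave -0.54 for Id1.

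**Figure D3:**
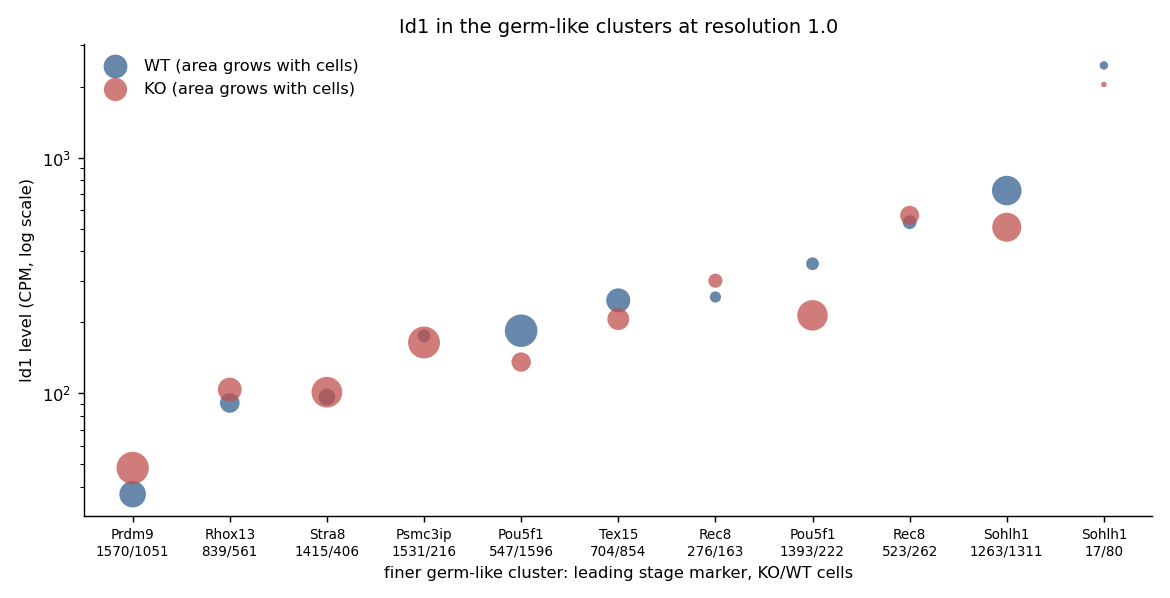
Id1 level (CPM, log scale, y axis) in the 11 germ-like clusters of the finer clustering (x axis, ordered by the WT level, with the leading stage marker and the number of KO and WT cells); blue is WT, red is KO and the area of a point grows with the number of cells. The cluster with the most Id1 holds 17 KO and 80 WT cells, and the KO point lies below the WT point there. KO also lies below WT in the other Sohlh1 cluster and in the Pou5f1, Psmc3ip and Tex15 clusters. It lies above WT in the Rec8, Stra8, Prdm9 and Rhox13 clusters.

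In the Prdm9 cluster, where the Id genes were scarcest, the direction was opposite. Id1 stood at 66.1 CPM in KO and 46.7 CPM in WT (log2 ratio 0.50, interval 0.40 to 0.60) and Id3 at 33.9 and 22.4 CPM (0.60, interval 0.45 to 0.75), and both were called higher where 4.34% of 10270 genes were. Id2, at 12 and 12.1 CPM, had a ratio of -0.02 (interval -0.24 to 0.20). After thinning to 3000 UMIs, 12.8% of KO and 11.2% of WT cells of this cluster held an Id1 UMI, with overlapping intervals. Bmp2 was called lower there, at 5.06 and 7.56 CPM (-0.58, interval -0.89 to -0.27), where 3.48% of genes were. The directions of Id1 and Id3 held under each setting tried, but the calls did not: Id1 ranged from 0.25 after thinning to 0.54, Id3 was 0.40 without cells with somatic markers, and Bmp2 ranged from -0.81 to -0.10.

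The remaining clusters lay between. In the Pou5f1 cluster, Id3 stood at 67.4 CPM in KO and 102 CPM in WT (log2 ratio -0.60) and Smad7 at 3.53 and 5.04 CPM (-0.51), both called lower where 2.23% of genes were, and Id1 had -0.45. With the finer clustering the Pou5f1-led cells formed 2 clusters with opposite shares of the libraries, 547 KO and 1596 WT cells in one and 1393 KO and 222 WT cells in the other. Id3 had -0.39 and -0.95 within them and -0.14 over both together. Id1 had -0.44 in the first and -0.73 in the second (interval -0.82 to -0.63), at 214 CPM in KO and 355 CPM in WT. That second ratio was larger in size than those of the Sohlh1-led clusters of the finer clustering (-0.52 and -0.27). Smad7 ranged from -0.80 to -0.33 over the settings tried. In the Meiob cluster the 3 Id genes had ratios of -0.30, -0.31 and -0.30, and no member was called there (background 4.18%). In the Rec8 cluster, where Id1 and Id3 were high in both libraries, their ratios were 0.17 and 0.13 and no member was called (4.08%). In the Stra8 cluster Id1 and Id3 had ratios of 0.11 and 0.10, and no member was called (6.84%).

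Within single germ-like cells the Id transcripts were found together. After thinning to 3000 UMIs, 50.04% of WT germ-like cells with an Id1 UMI also held an Id3 UMI, against 10.7% of those without. In KO the shares were 41.3% and 12%. In the Sohlh1 cluster they were 60.5% and 22.8% in WT, and 41.1% and 16.9% in KO. Cells of a cluster need not share 1 stage, so stage is not held fixed here, and these shares are a description of 1 library each.

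The rest of the pathway was read from a list of 58 genes that includes the members. In germ-like cells 42 had enough UMIs, 1 was called higher and 7 lower, with a median log2 ratio of -0.18, where 2.35% of all genes were called higher and 5.45% lower with a median of -0.06. Without the members, 32 had enough UMIs, with 1 called higher, 3 called lower and a median of -0.14. The target Id4 stood at 13.6 CPM in KO and 19.8 CPM in WT (-0.55, interval -0.64 to -0.45). The ligand Gdf9, an oocyte growth factor, stood at 1.02 and 1.52 CPM (-0.57), and the coreceptor Rgma at 1.36 and 1.95 CPM (-0.52). The antagonist Nbl1 was the gene called higher, from 108 and 64 UMIs (0.74, interval 0.28 to 1.21).

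In germ-like cells 5.45% of all genes were called lower. By role, the same call fell on 4 of 13 targets, 2 of 6 ligands, 1 of 8 receptors and coreceptors and 2 of 8 Smads and Smad ligases with enough UMIs. Smad6 and Smad7 count in both the first and the last of these groups. None of the 3 E proteins, the partners of the ID proteins, was called over all germ-like cells, while Tcf4 passed the limit upward in the Rec8 cluster (16.7 CPM in KO and 10.4 CPM in WT, log2 ratio 0.68) and in the Stra8 cluster (9.85 and 5.77 CPM, 0.77). Tcf12, the E protein with the highest WT level, stood at 89.4 CPM in KO and 97.6 CPM in WT (-0.13). Smad4, the shared partner of the signalling Smads, had 37.1 and 43.0 CPM (-0.21). Msx1, a homeobox target, went the other way without passing the size limit, at 13.3 and 10.7 CPM (0.31, interval 0.20 to 0.42).

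In the Sohlh1 cluster 8 of 11 targets with enough UMIs were called lower, where 8.51% of all genes were. Of these 8, 5 are members, a set chosen on the lower Id1 level in KO germ cells. The others were Id4 at 19.1 CPM in KO and 38.1 CPM in WT, Zglp1, which acts in the oogenic program of germ cells, at 16.1 and 28.6 CPM (-0.83), and Gata2 at 7.89 and 11.6 CPM (-0.55). Smad1 was also called lower, at 4.57 and 6.69 CPM (-0.55). All 3 E proteins stayed within the size limit, with a median of -0.25. Immediate early genes, which respond to handling and dissociation, had a median of -0.21 with 3 of 10 called lower in this cluster, and their part in the Id result was not tested.

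A GC-rich element bound by Smads, GGCGCC, was searched on both strands in the 250 bases before the RefSeq start of each gene (GRCm38.p6). It occurs in 9.59% of 32851 RefSeq promoters. Of the other Smad elements searched, CAGACA (17.1% of all promoters) and the palindromic Smad element (0.167%) were in none of the members' windows. No promoter entry was at hand for Id1, Bmp2 or Smad7, so these were not searched. Promoter entries were at hand for Bmp4, Bmpr1a, Bmpr2, Smad5, Smad6, Id2 and Id3, with 3 starts for Smad5 and 1 for each other gene. GGCGCC was found in 4 of these 9 promoters, in 4 of the 7 genes. The promoter windows of the 7 genes are between 62.8% and 78.8% G and C, and the share over all promoters was not matched for this. The 4 windows printed below lie before the RefSeq start used, but inside the bounds of their genes in GENCODE M21. They are therefore not upstream of every annotated start of these genes. The windows are shown because they place the target Id2 beside both receptors and Smad5, with the element in capitals. A match is a string of letters and not a site of binding.
Id2, chr12:25096306-25096335, minus strand: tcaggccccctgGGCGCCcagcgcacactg
Bmpr1a, chr14:34502727-34502756, minus strand: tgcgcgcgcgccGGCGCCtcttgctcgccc
Bmpr2, chr1:59764162-59764191, plus strand: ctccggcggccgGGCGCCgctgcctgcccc
Smad5, chr13:56703021-56703050, plus strand: ccccggcgagcgGGCGCCgagcgcttgtcc

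Of these 4 genes with the element, Bmpr1a and Id2 were called lower in the Sohlh1 cluster, and Bmpr2 and Smad5 were not. Of the searched genes without it, Smad6 and Id3 were called lower there too, and Bmp4 fell under the UMI minimum. In that cluster 8.51% of all genes were called lower, so the element did not set the called members apart. The full palindromic glucocorticoid response element was in none of the 9 windows searched, which leave out Id1, Bmp2 and Smad7. It occurs in only 0.00913% of all promoters, so its absence from so few windows says nothing about these genes.

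In the soma, the ligands divided between the granulosa-like classes, the supporting cells of the ovary. Bmp2 was highest in Lgr5+ granulosa-like cells, at 105 CPM in WT and 87.1 CPM in KO, and low in Lgr5- granulosa-like cells at 6.22 and 5.89 CPM. Bmp4 had the opposite distribution, at 0.903 and 1.37 CPM in Lgr5+ and 39.0 and 51.0 CPM in Lgr5- granulosa-like cells. Epithelia-like cells of the ovarian surface held both, with Bmp2 at 34.5 CPM in WT and 33.8 in KO and Bmp4 at 8.68 and 8.73.

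The receptors varied less between classes. Bmpr1a ranged in WT from 22.4 CPM in the Meiob cluster to 57.1 CPM in Lgr5- granulosa-like cells among classes with at least 50 cells in each library, and Bmpr2 from 28.6 CPM in epithelia-like cells to 64.7 CPM in the Stra8 cluster. Over germ-like against somatic-like cells, Bmpr2 was slightly higher in germ-like cells, with log2 ratios of 0.28 in WT and 0.23 in KO. Bmpr1a was slightly lower, at -0.36 and -0.52.

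Averaged over all germ-like cells, the inhibitory Smad7 and the targets Id2 and Id3 were lower than in somatic-like cells. Smad7 stood at 129 CPM in WT and 131 CPM in KO stroma-like cells, and was lower in germ-like than in somatic-like cells by log2 ratios of -3.71 in WT and -4.09 in KO. Id2 stood at 488 and 489 CPM in stroma-like and at 519 and 559 CPM in cycling stroma-like cells. Id3 stood at 822 and 759 CPM in stroma-like cells, and its 674 and 738 CPM in the Rec8 cluster lay above the 612 and 519 CPM of all somatic-like cells. Id1 stood at 314 CPM in germ-like against 296 CPM in somatic-like cells in WT (log2 ratio 0.09, interval 0.05 to 0.12), and at 205 against 260 CPM in KO (-0.35, interval -0.38 to -0.31). In WT no somatic class with at least 50 cells reached the Id1 level of the Sohlh1 cluster.

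**Figure D4:**
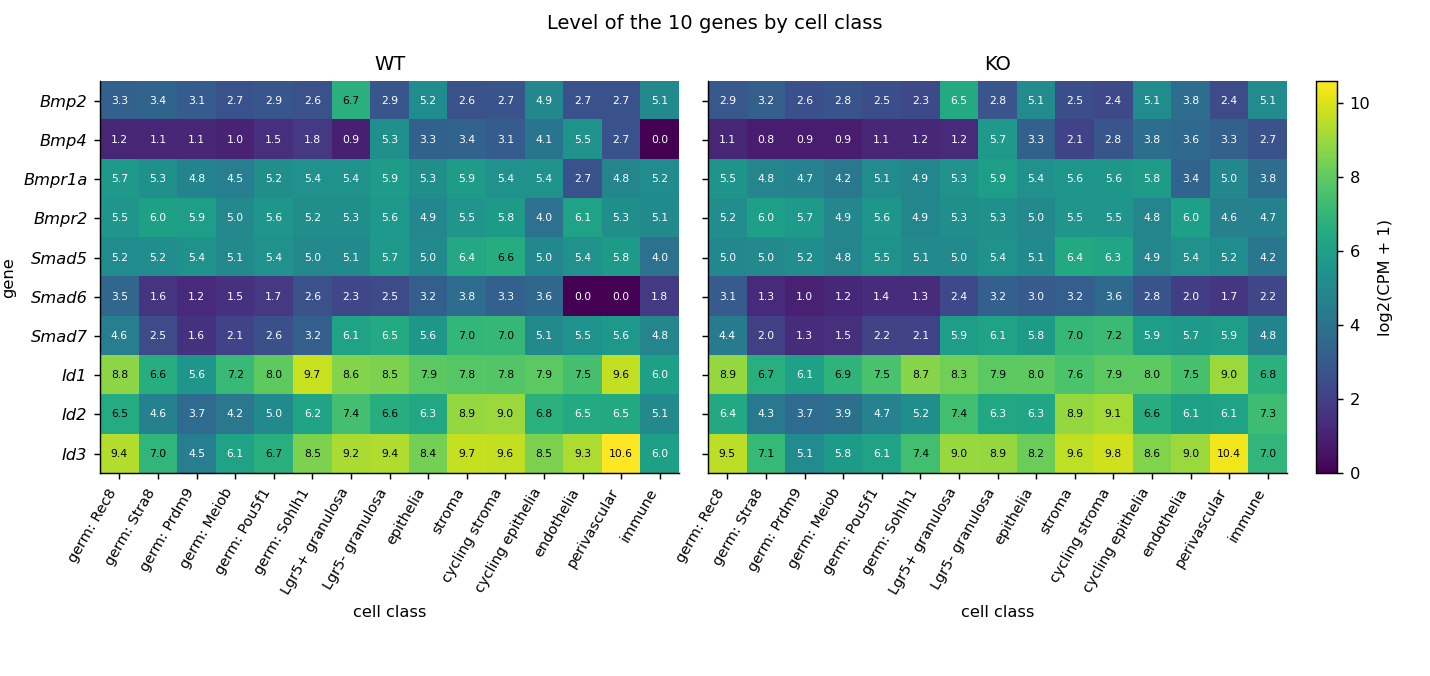
Level of the 10 genes (y axis) in germ-like clusters and somatic-like classes (x axis) as log2(CPM + 1), by colour and by the printed value, for WT (left) and KO (right). Bmp2 is brightest in Lgr5+ granulosa-like cells, Bmp4 is bright in Lgr5- granulosa-like cells and, in WT, in endothelia-like cells, and the Id genes are dark in the Prdm9 cluster; the last 4 classes hold fewer than 50 WT cells.

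Between genotypes few members passed the size limit within a somatic class. Over all somatic-like cells, which mix the classes, Id3 had a log2 ratio of -0.24 (interval -0.27 to -0.21), beside -0.22 in germ-like cells. Bmp4 had -0.38, Smad6 -0.32, Id1 -0.18 and Id2 -0.17, and Bmpr2 was nearest 0 at -0.04. Within classes, Id1 and Id3 were lower in KO in both granulosa-like classes and in stroma-like cells, so their lower levels were not confined to germ-like cells. This did not hold in every class: in cycling stroma-like cells Id1 had 0.18 and Id3 0.20, and in epithelia-like cells 0.02 and -0.18. Id2 had -0.04 in Lgr5+ granulosa-like, -0.28 in Lgr5- granulosa-like (interval -0.62 to 0.07), -0.01 in epithelia-like, 0.00 in stroma-like and 0.11 in cycling stroma-like cells. In Lgr5+ granulosa-like cells no member was called (background 4.01%). Id1 stood there at 325 CPM in KO and 391 CPM in WT (log2 ratio -0.27, interval -0.33 to -0.20), Id3 at 501 and 608 CPM (-0.28), and Bmp2, the main ligand of these cells, at the levels above (-0.26, interval -0.39 to -0.14). This class joined 2 clusters with different shares of the libraries, 631 KO and 570 WT cells in one, and 960 KO and 106 WT cells in the other. Id1 had ratios of -0.36 and -0.39 within them, Id3 -0.39 and -0.60, and Bmp2 -0.34 and 0.26. In the second cluster Id3 stood at 548 CPM in KO and 831 CPM in WT (interval -0.70 to -0.50), past the size limit.

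In Lgr5- granulosa-like cells (237 KO and 180 WT cells), Id1 stood at 243 CPM in KO and 363 CPM in WT (log2 ratio -0.58, interval -0.76 to -0.39) and was the 1 member called, where 2.41% of 4724 genes were called lower. With the same limits on cells for both libraries Id1 had -0.34, short of the size limit. Id3 had 485 and 654 CPM (-0.43, interval -0.56 to -0.30). Bmp4, the ligand of these cells, did not go down with them (0.39, interval -0.10 to 0.88). Immediate early genes had a median of -0.38 in this class with 5 of 14 called lower, and their part in the Id1 value was not tested.

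In stroma-like cells Smad6 was called lower, at 7.89 CPM in KO and 12.9 CPM in WT (log2 ratio -0.71, interval -1.20 to -0.23), where 2.13% of genes were. Id1 had -0.22, Id3 -0.12 and Id2 0.00 there. Bmp4 was under the UMI minimum with 27 and 63 UMIs, at 3.33 and 9.45 CPM (-1.51, interval -2.21 to -0.83). The antagonist Fst, which binds activins and BMPs, stood at 12.1 and 45.7 CPM (-1.92). Its level in Lgr5+ granulosa-like cells was 612 CPM in KO and 578 CPM in WT. How much of the stroma-like Fst came from granulosa RNA was not tested. In epithelia-like cells all 10 members had enough UMIs and none was called (background 3.6%), and Id1 had a ratio of 0.02. In cycling stroma-like cells none of the 7 members with enough UMIs was called (3.84%), and Id1 had 0.18.

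**Figure D5:**
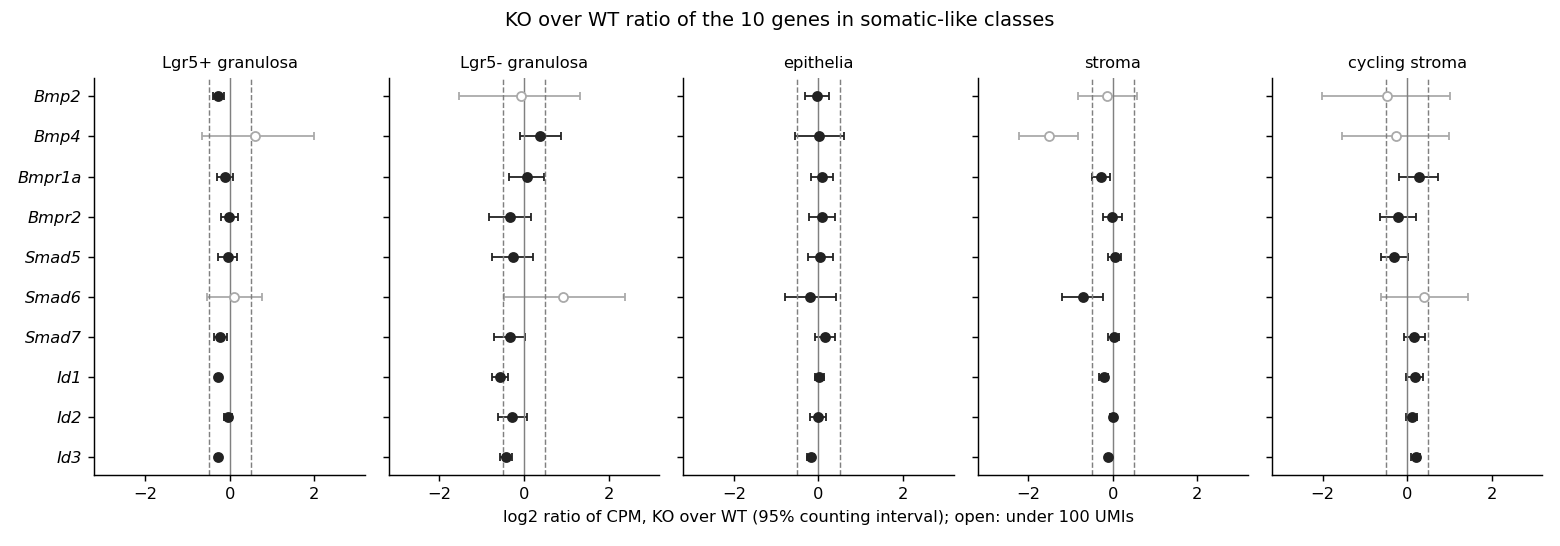
Log2 ratio of CPM, KO over WT (x axis), for the 10 genes (y axis) in the 5 somatic-like classes with at least 50 cells in each library; bars are exact 95% intervals from counting error, open points rest on fewer than 100 UMIs, and dashed lines mark the size limit of 0.5. The points lie near 0 in epithelia-like cells, and Id1 lies past the limit in Lgr5- granulosa-like cells.

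Endothelia-, perivascular- and immune-like cells held 30, 15 and 29 WT cells, and no ratio is read from them. Endothelia-like cells held Bmp4 at 43.1 CPM in WT and 11.5 CPM in KO, and perivascular-like cells held Id3 at 1521 and 1313 CPM. In KO the summed germ markers in endothelia-like cells reached 24.4% of their germ-like level, against 1.92% in WT, so these cells were not alike in purity. In the 5 classes above that share was between 1.96% and 3.82%.

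The genes whose levels over 27 class and library sums lay closest to a member were found among 12118 genes by Pearson's r of log2(CPM + 1). The sums share 2 libraries and a base of germ-like clusters, and r is a description. For Id1 they were Pgp (0.84), Mpg (0.82) and Rragd (0.81), and Id3 itself had 0.74. Id2 lay closest to Polr3gl (0.93), Samd1 (0.93) and Pmp22 (0.92), and Id3 to Zfp820 (0.92), Ift27 (0.91) and Zfp955a (0.91). Bmp2 lay closest to Amica1 (0.94), Pglyrp1 (0.93) and Svs5 (0.89), and Bmp4 to Ank2 (0.91), Bcl2 (0.87) and Thbs1 (0.85). Among the members, Smad7 followed Id2 (0.89) and Id3 (0.87) more closely than Id1 (0.46).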

How the data were processed

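The deposited values were whole-number UMI counts per gene and cell barcode, with no normalization, made by the authors with Cell Ranger 3.0.2 (per the file headers). The submitters' processing notes also name the build mm10 and Seurat 3.2.3. Cells were kept within the limits of the study: 1500 to 6500 genes and 5500 to 40000 UMIs for WT, 1200 to 5500 genes and 3000 to 30000 UMIs for KO, and under 10% mitochondrial UMIs. The libraries held 186117981 (KO) and 168483330 (WT) UMIs.

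Cells were clustered with scanpy 1.11.5 (Leiden resolution 0.5, 2000 variable genes, 30 components, 20 neighbours), leaving out 59 genes, namely the 58 pathway genes and Nr3c1. Clusters were named "-like" from marker lists with at least 3 markers, and 803 KO and 254 WT cells that mixed germ and somatic markers were left out. Scrublet doublets were removed only as an alternative. Names were rebuilt here and may differ from those of the study. UMIs were summed by class and library, with exact 95% Poisson intervals for levels and exact conditional binomial intervals for ratios. The call rule was tested on simulated counts drawn with counting error only. That simulation cannot show how the rule behaves with variation between ovaries. Promoters came from RefSeq and positions from GENCODE M21, which matched 27722 identifiers. The counts show no strand setting, so reads of overlapping genes may be shared. No member shared 200 bases of its last 600 with another gene. Bmp4 and Bmpr1a had shorter matches, with up to 99 and 44 shared runs of 50 bases, counted over the transcripts of a single other gene.

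The members, the gene lists and the rules were chosen with earlier results of these data known. The named genes were the 10 members, pathway genes past the size limit in germ-like cells or named by role, and the 3 genes most like each Id gene and ligand. Further names in single clusters were chosen after their values were seen.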

Additional observations from a re-analysis of the deposited data

Results flagged for a closer look

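Id1 and Id3 were singled out because the genotypes differed in opposite directions between germ-like clusters. The log2 ratio of KO over WT of Id1 was 0.50 in the Prdm9 cluster and -1.02 in the Sohlh1 cluster. That of Id3 was 0.60 in the Prdm9 cluster, -0.60 in the Pou5f1 cluster and -1.12 in the Sohlh1 cluster. With 1 library per genotype the difference between clusters was not tested.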

How the results depend on the processing

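No paired analysis was possible because each genotype gave 1 library and the labels give no shared replicate number. Over all germ-like cells, the log2 ratio of Id1 (-0.62) moved beyond its interval to -0.56 with the same limits on cells for both libraries, -0.58 with median-of-ratios size factors, -0.65 with totals without mitochondrial, ribosomal protein and haemoglobin genes, -0.64 after thinning to 3000 UMIs, and -0.31 without cells that held UMIs of at least 2 markers of another class, which left 3975 KO and 2454 WT cells. Of the alternatives added after seeing the data, it was -0.27 without the Sohlh1 cluster, -0.54 standardised to the WT mix of the 6 clusters and -0.31 standardised to that of the clusters at resolution 1.0. It stayed below 0 under every alternative run. The 1069 genes called in germ-like cells became 601 without cells with markers of another class, 569 after thinning, 160 with a log2 ratio of at least 1 and 24 with a difference of at least 0.25 in ln(CP10k + 1), the limit of the study. The pathway median moved by less than 0.1 under each alternative run. Of 983 alternative values of members, leaving out those of Id1 over all germ-like cells, 812 stayed within the interval of the reported value, 171 moved beyond it and 0 called values changed sign. In the Sohlh1 cluster, Id1 stayed between -1.08 and -0.67, where the last value pools the Sohlh1-led clusters at resolution 1.0, which had -0.52 and -0.27 on their own. The depth limits Bmp4 and Smad6, which rest on fewer than 400 UMIs per library in germ-like cells.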
